A study of Mus musculus with 8 samples.

Results

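Mitochondrial complex I is the NADH dehydrogenase that feeds electrons into the respiratory chain. Its transcripts were examined in brown adipose tissue of wild-type mice and of mice with Ogt, the gene of the enzyme OGT, knocked out in brown adipocytes. The genes were the protein-coding models of the deposited FPKM table (fragments per kilobase, scaled for depth) whose symbol begins with Nduf, without Ndufa4l2, selected on a mean FPKM of at least 0.5 across all 8 libraries. They numbered 45 of the 13171 genes that reach that mean and of the 54532 genes in the table. The table held 51 models with the Nduf stem: 5 were of another biotype, Ndufa4l2 was left out by name, and 0 protein-coding models lay under the minimum. All 45 passed the filter on low values. The mean FPKM over both groups chose the genes, so their level is a description. The lowest inside the rule was Ndufaf2 with a mean of 2.75 FPKM, while the model just outside the minimum, the pseudogene Ndufa11b, was listed at 0 in every library, and the pseudogene Ndufs6b, left out by its biotype, had a mean of 0.713 FPKM.

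Complex I takes electrons from NADH in its N module, passes them along iron-sulfur clusters to the Q module, where ubiquinone is reduced, and pumps protons through a membrane arm. A conserved set of core subunits does the chemistry, and a larger set of accessory subunits surrounds it. The membrane core is made from mitochondrial DNA, and all other subunits come from nuclear genes. Dedicated assembly factors bring the modules together and are not part of the finished enzyme. In brown fat the respiratory chain burns fuel at a high rate because UCP1 lets protons back across the inner membrane without making ATP.

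The 4 OGTBKO samples were brown fat of mice whose Ogt gene had been knocked out specifically in brown adipocytes, and the 4 WT samples were brown fat of wild-type mice labelled as control. OGT attaches O-linked N-acetylglucosamine to intracellular proteins. All animals were kept at 23 °C on standard chow, received an inducing agent spelled gomaxifen in the labels after 8 weeks, and gave tissue 2 months later with the surrounding white fat removed. The sources used here give no strain, sex or Cre line. They number the samples without calling them separate animals, so the p-values rest on sample-to-sample spread that may in part be technical. All samples carry the same batch value. Ogt measured 10.7, 14.5, 12.8 and 11.8 FPKM in OGTBKO 1 to 4, against 33.1, 24.7, 23.9 and 22.5 FPKM in WT 1 to 4 (log2 change -1.03, limma adjusted p = 0.00511), so every OGTBKO library lay below every WT library.

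Reads in genes numbered 13393962 to 15897920 per library, and mitochondrial genes took 25.2% to 30.2% of them in OGTBKO libraries and 27.2% to 39.4% in WT libraries, with the highest share in WT 3. The label reads adipocytes for tissue that was taken whole. Of 7 brown adipocyte markers 3 were lower in OGTBKO tissue, namely the uncoupling protein gene Ucp1, the coactivator Ppargc1a, which drives mitochondrial genes, and Prdm16; of the other 4, 2 were higher at an unadjusted p under 0.05 and 0 after adjustment. The summed level of 7 white adipocyte markers was 157 to 209 FPKM in OGTBKO and 53.9 to 128 FPKM in WT libraries, with 2 of the 6 tested higher and Hoxc9 near 0 in all. Skeletal muscle markers summed to 1428 FPKM in OGTBKO 1 and 1.02 to 6.15 FPKM in the other OGTBKO libraries, against 458 FPKM in WT 1, 35.8 FPKM in WT 4 and 0.734 to 1.13 FPKM in WT 2 and WT 3. Muscle creatine kinase (Ckm), a defining muscle marker, was at 0 in OGTBKO 2, OGTBKO 4, WT 2 and WT 3. The part of these cell types in the results below was not tested. Values without both libraries numbered 1 are given, and WT 4 stays in those.

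The base composition of complex I transcripts enters several results below, so a stretch from the middle of the coding sequence is shown for 4 genes that the results turn on. Each stretch has 120 bases of the GENCODE M21 coding sequence, 5′ to 3′, with G and C in capitals, and Ndufa11 and Ndufaf4 stand near the opposite ends of the range of transcript GC content among the 45 genes. Ndufa11, a membrane arm subunit, was higher in OGTBKO tissue, and G and C make up 58.3% of its stretch.
Ndufa11: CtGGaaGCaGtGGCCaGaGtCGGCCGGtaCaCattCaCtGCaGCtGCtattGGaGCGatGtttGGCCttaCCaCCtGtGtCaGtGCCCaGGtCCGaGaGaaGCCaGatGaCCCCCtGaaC
Ndufa13, another membrane arm subunit, has 62.5% G and C in its stretch and was called lower with the trend on base composition and length removed, but not by the unweighted test on the deposited values.
Ndufa13: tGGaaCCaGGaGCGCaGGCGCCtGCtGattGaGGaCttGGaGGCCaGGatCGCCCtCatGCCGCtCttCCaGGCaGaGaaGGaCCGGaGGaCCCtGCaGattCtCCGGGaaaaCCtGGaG
Ndufa9, of the Q module, has 48.3% and was higher under both readings.
Ndufa9: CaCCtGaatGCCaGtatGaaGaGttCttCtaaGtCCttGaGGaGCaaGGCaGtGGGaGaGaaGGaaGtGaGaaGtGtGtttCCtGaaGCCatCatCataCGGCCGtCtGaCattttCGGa
Ndufaf4, an assembly factor, has 44.2% and was lower before the trend was removed.
Ndufaf4: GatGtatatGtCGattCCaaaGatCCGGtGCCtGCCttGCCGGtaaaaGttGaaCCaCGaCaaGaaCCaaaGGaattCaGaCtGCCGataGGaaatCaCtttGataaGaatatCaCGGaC
The stretches run over coding bases 154 to 273 of Ndufa11, 157 to 276 of Ndufa13, 505 to 624 of Ndufa9 and 199 to 318 of Ndufaf4.

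Promoters were looked at because nuclear respiratory chain genes are known targets of factors such as NRF1, which binds GC-rich palindromes. RefSeq (GRCm38.p6) gave a promoter for 40 of the 45 genes and for 9281 of all genes tested, and 250 bases before the start were searched on both strands. The letters GCATGCGC, the core of an NRF1 element, stood in 4 promoters (10%), those of Ndufa11, Ndufa6, Ndufa8 and Ndufaf4, against 4.76% of all promoters. Ndufa11 and Ndufaf4 moved in opposite directions, and their windows are shown with the matches in capitals; the palindrome matches on both strands at the same place.
Ndufa11, chr17:56717512-56717761, plus strand: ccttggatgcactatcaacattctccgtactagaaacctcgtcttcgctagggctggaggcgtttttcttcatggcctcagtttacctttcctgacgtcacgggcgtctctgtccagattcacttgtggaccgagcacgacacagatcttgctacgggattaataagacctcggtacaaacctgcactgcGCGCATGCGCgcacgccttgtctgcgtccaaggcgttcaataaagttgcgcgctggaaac
Ndufaf4, chr4:24897833-24898082, plus strand: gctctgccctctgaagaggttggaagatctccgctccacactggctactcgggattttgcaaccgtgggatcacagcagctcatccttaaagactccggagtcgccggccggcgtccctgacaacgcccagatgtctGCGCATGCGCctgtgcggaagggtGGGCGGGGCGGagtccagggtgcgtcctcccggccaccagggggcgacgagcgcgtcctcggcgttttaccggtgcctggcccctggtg
In Ndufaf4 the second run of capitals marks overlapping matches to the GC box, GGGCGG. That motif stood in 45% of the 40 promoters and 60.3% of all. AAGGTCA, the core of an estrogen-related receptor element, stood in 7.5% of the complex I promoters (Ndufb2, Ndufb4 and Ndufs5) and 2.75% of all. For the ETS letters CCGGAAG the shares were 12.5% of complex I and 14.3% of all promoters, and for CCAAT 35% of complex I and 36.6% of all. CACGTG, the E-box, was in 5% of complex I and 8.59% of all promoters, and ATGGCGGC, bound by YY1, in 2.5% of complex I and 2.05% of all. The median GC content of the promoter windows was 57.8% for complex I genes and 60% for all genes. A match is only a run of letters, and no binding was measured.

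Of the 45 complex I genes, 6 were higher in OGTBKO tissue (Ndufa9, Ndufv3, Ndufa11, Ndufa3, Ndufb4 and Ndufaf6), 2 were lower (Ndufaf4 and Ndufab1) and 37 did not pass the test (limma on log2(FPKM + 0.5), Benjamini-Hochberg adjusted p under 0.05 over all genes tested). That is 17.8% called, where 15.6% of all genes tested were called. Higher calls made up 13.3% of the complex I genes against 8.11% of all genes, and lower calls 4.44% against 7.46%. Log2 changes ran from -0.50 (Ndufaf4) to 0.80 (Ndufa11), with 28 above 0 and 17 below, and their median was 0.16, against -0.00 over all genes. Counted without a test, all 4 OGTBKO libraries lay above all 4 WT libraries for 8 genes (the 6 higher ones, Ndufb10 and Ndufs3) and below them for 4 (Ndufaf4, Ndufab1, Ndufa13 and Ndufv1), while groups did not overlap for 22.5% of all genes tested. Levels are those of whole tissue, in which fewer cells of a type and less RNA per cell cannot be told apart.

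With each library's trend on transcript GC content and gene length removed, the calls among complex I genes were different ones. Under that setting 1 gene was higher (Ndufa9) and 4 were lower (Ndufa13, Ndufv1, Ndufs8 and Ndufs6), against 10.3% of all genes called, 5.4% higher and 4.94% lower. Ndufa9 was the 1 gene called in both. The median log2 change of the 45 genes was then 0.07, with 24 above 0 and 21 below. The scale of the libraries entered too: with each library's own read total as the denominator, 4 complex I genes were higher, both lower calls ended, the median of all genes went to 0.09 and that of complex I genes to 0.28.

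**Figure D1:**
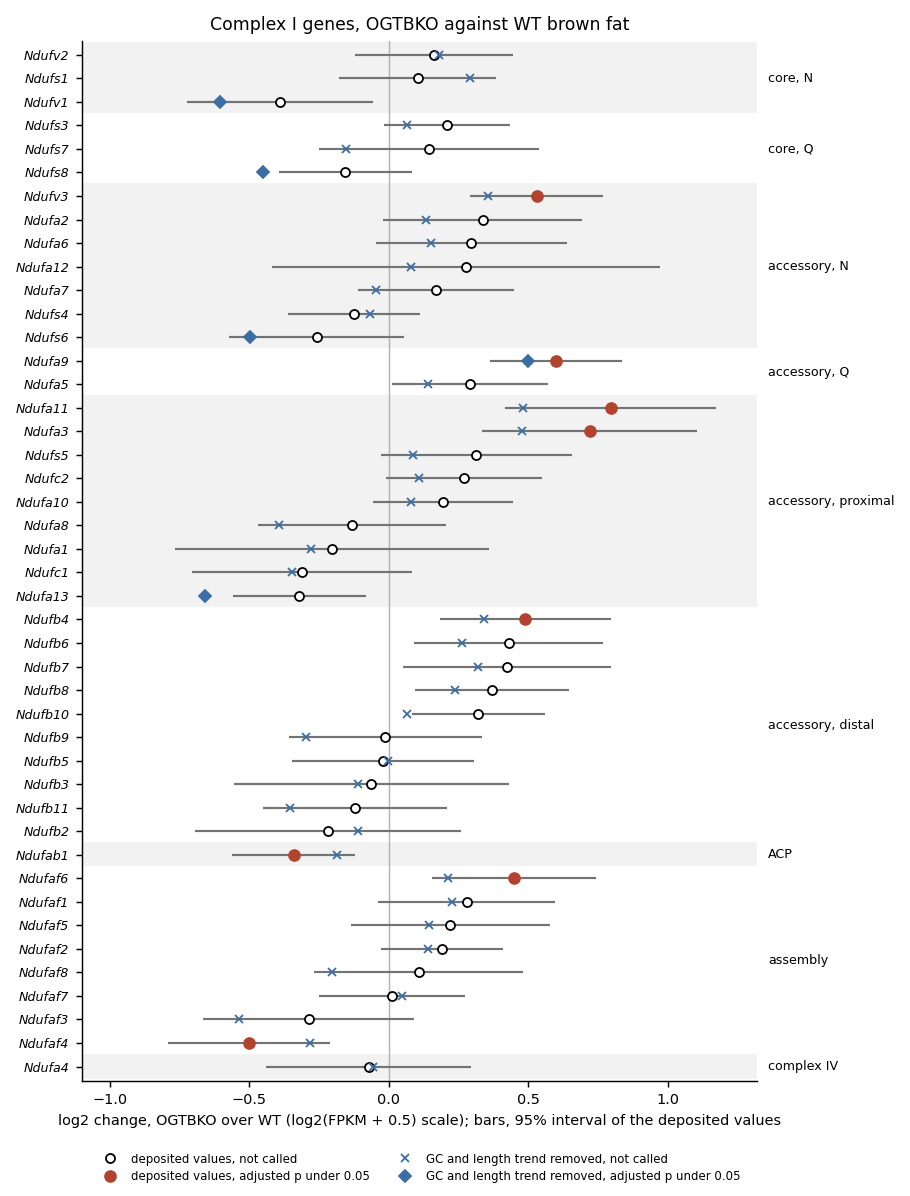
Log2 change (OGTBKO over WT, log2(FPKM + 0.5) scale) of 44 complex I genes, grouped by role, with 95% intervals as bars. Circles are the deposited values, filled where the adjusted p is under 0.05 (6 to the right of 0, 2 to the left); crosses and diamonds are the values with the GC and length trend removed, diamonds where called (Ndufa9 to the right, and Ndufv1, Ndufs8, Ndufs6 and Ndufa13 to the left).

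None of the 7 nuclear core subunits, which carry the flavin, the iron-sulfur clusters and the quinone site, passed limma's test on the deposited values. By limma voom on the back-calculated reads the count was also 0, and 1 (Ndufv1) had an unadjusted p under 0.05. Their log2 changes lay between -0.39 and 0.21, with a median of 0.10, and with the trend removed 2 were lower and the median was -0.10. In the N module Ndufv1 (ENSMUSG00000037916, chr19:4007497-4012806, minus strand, mm10), which binds NADH and the flavin, measured 143, 145, 115 and 145 FPKM in OGTBKO 1 to 4, against 164, 199, 146 and 213 FPKM in WT 1 to 4. Each OGTBKO library was below each WT library, but narrowly where OGTBKO 2 and 4 met WT 3. The means were 137 ± 14.7 FPKM in OGTBKO and 181 ± 30.9 FPKM in WT tissue (SD, n = 4 each), which gave a log2 change of -0.39 ± 0.15 (SE) with a limma adjusted p of 0.105. With the trend removed the change was -0.61 ± 0.15 (adjusted p = 0.0345), a call that ended without any 1 of the 4 OGTBKO libraries, WT 2 or WT 4 (adjusted p = 0.0604 to 0.0986), and without WT 3 the deposited values were called too (adjusted p = 0.0460). Ndufv2, its partner with an iron-sulfur cluster, measured 148, 163, 171 and 205 FPKM in OGTBKO and 167, 140, 157 and 146 FPKM in WT libraries (log2 0.16, 95% interval -0.12 to 0.44). Ndufs1, the largest core subunit and the holder of several clusters, measured 63.0, 70.5, 58.6 and 79.5 FPKM in OGTBKO and 57.8, 58.6, 71.7 and 63.8 FPKM in WT libraries (log2 0.10, 95% interval -0.18 to 0.39). For both genes the groups overlapped.

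In the Q module, Ndufs7 helps line the pocket where ubiquinone is reduced. It spanned 100.5 to 175 FPKM in OGTBKO (100.5, 140, 149 and 175) and 104 to 135 FPKM in WT libraries (134, 131, 104 and 135; log2 0.15, 95% interval -0.25 to 0.54). The groups overlapped, and the sign of the change turned once the trend was removed (log2 -0.15, not called). Ndufs3, a scaffold of the module, measured 115, 133, 124 and 141 FPKM in OGTBKO and 105, 115, 110 and 113 FPKM in WT libraries, so that OGTBKO 1 and WT 2 nearly met (log2 0.21 ± 0.10, limma adjusted p = 0.182). Ndufs8, which holds a pair of clusters next to the quinone site, measured 144, 172, 167 and 180 FPKM in OGTBKO and 192, 188, 176 and 181 FPKM in WT libraries. OGTBKO 4 reached into the WT range, and the change was -0.15 ± 0.11 (adjusted p = 0.342). Trend removal took it to -0.45 ± 0.11 (adjusted p = 0.0386), and that call ended when any library but WT 1 was left out (adjusted p = 0.0519 to 0.107).

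Among the 29 accessory subunits, 5 were higher and 1 was lower, with a median log2 change of 0.27 and 17 above 0. That is 17.2% higher and 3.45% lower, against 8.11% and 7.46% of all genes tested. With the trend removed 1 was higher and 2 were lower, against 5.4% and 4.94% of all genes. The median of the accessory subunits was then 0.08, with 16 above 0. In the N module, 1 of 7 passed the test. Ndufv3 (ENSMUSG00000024038, chr17:31520115-31531326, plus strand), a small subunit beside the flavin site, measured 69.1, 57.2, 61.3 and 69.7 FPKM in OGTBKO libraries, against 46.4, 41.5, 47.8 and 41.5 FPKM in WT libraries. The lowest OGTBKO library stood well above the highest WT library. The means were 64.3 ± 6.11 FPKM in OGTBKO and 44.3 ± 3.27 FPKM in WT tissue (SD, n = 4 each), and the log2 change was 0.53 ± 0.11 (limma adjusted p = 0.0145). The adjusted p was 0.0501 without WT 2 and 0.0631 with the trend removed (log2 0.36). Ndufa2, which has a thioredoxin-like fold and the highest deposited FPKM of the accessory subunits of this module, measured 147, 95.9, 124 and 127 FPKM in OGTBKO and 107, 104, 77.4 and 99.9 FPKM in WT libraries; OGTBKO 2 fell inside the WT range (log2 0.34 ± 0.16, adjusted p = 0.173). Ndufs6, a zinc-binding subunit added late in assembly, measured 46.6, 31.2, 36.6 and 36.0 FPKM in OGTBKO and 42.9, 49.2, 38.7 and 48.3 FPKM in WT libraries. OGTBKO 1 was as high as WT libraries and the other OGTBKO libraries were below all of them (log2 -0.26 ± 0.14, adjusted p = 0.232). Once the trend was removed Ndufs6 was lower (log2 -0.50 ± 0.13, adjusted p = 0.0434), a call that ended without OGTBKO 2, 3 or 4, WT 2 or WT 4 (adjusted p = 0.101 to 0.117). Mrpl36, a ribosomal protein gene on the opposite strand, overlaps Ndufs6 and had a mean of 28.6 FPKM (log2 0.17); whether counting used strand is not stated, so reads of the overlap cannot be assigned with certainty. The other 4 genes of this module (Ndufa6, Ndufa7, Ndufa12 and Ndufs4) had log2 changes of -0.12 to 0.30.

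Ndufa9 (ENSMUSG00000000399, chr6:126821721-126849136, minus strand) gave the smallest p of the 45 genes. Its product, a member of the short-chain dehydrogenase family that binds NADPH, sits where the Q module joins the membrane arm. It measured 143, 154, 141 and 175 FPKM in OGTBKO 1 to 4, against 99.1, 96.4, 99.8 and 107 FPKM in WT 1 to 4. The WT libraries lay close together and every OGTBKO library was far above them. The means were 153 ± 15.7 FPKM in OGTBKO and 101 ± 4.54 FPKM in WT tissue (SD, n = 4 each), and the log2 change was 0.60 ± 0.11 (SE; 95% interval 0.36 to 0.84; limma adjusted p = 0.00985). The call held without each library in turn and in 20 of the 21 alternatives planned, all but the replicate block combined with trend removal. With the trend removed the change was 0.50 ± 0.10 (adjusted p = 0.0185), though that call ended without OGTBKO 4 (adjusted p = 0.0542) or WT 2 (adjusted p = 0.0580). Ndufa5, the other accessory subunit of the Q module, had a mean of 96.8 ± 10.1 FPKM in OGTBKO and 79.3 ± 10.5 FPKM in WT tissue (log2 0.29, adjusted p = 0.140).

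**Figure D2:**
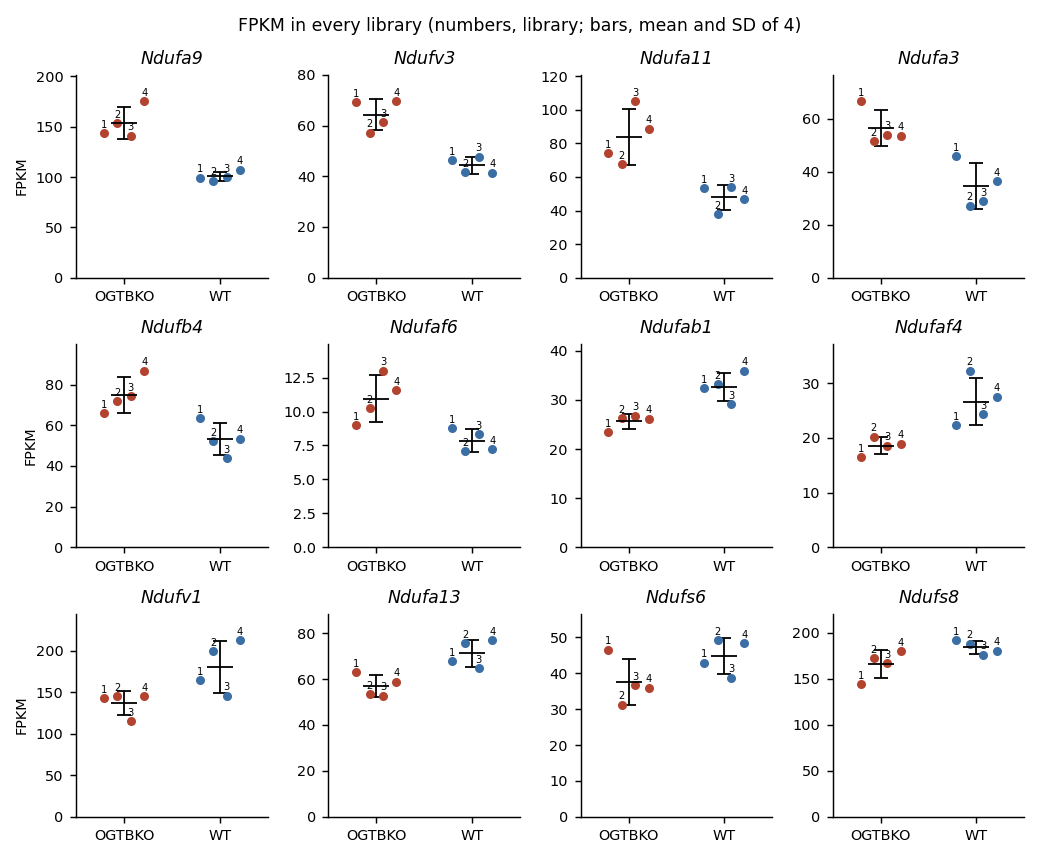
FPKM of the 8 genes called on the deposited values (upper and middle rows) and of the 4 called lower with the GC and length trend removed (bottom row), in each library (numbers), with mean and SD of the 4 OGTBKO (left) and 4 WT (right) libraries. Ndufa9 stood at 141 to 175 FPKM in OGTBKO and 96.4 to 107 FPKM in WT libraries, and the groups overlapped only for Ndufs6 and Ndufs8.

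In the proximal part of the membrane arm, 2 of 9 accessory subunits were higher and 0 were lower by limma (0 by voom, 1 at an unadjusted p under 0.05). Ndufa11 (ENSMUSG00000002379, chr17:56717767-56722141, plus strand), which lies where complex I meets complex III in supercomplexes, measured 74.1, 67.7, 105 and 88.8 FPKM in OGTBKO libraries, against 53.2, 37.9, 53.8 and 46.7 FPKM in WT libraries. OGTBKO libraries spread widely, but the lowest was still above the highest WT library. The means were 83.9 ± 16.7 FPKM in OGTBKO and 47.9 ± 7.42 FPKM in WT tissue (SD, n = 4 each; log2 0.80 ± 0.17, adjusted p = 0.0174). Left-out fits brought the adjusted p to 0.0510 without OGTBKO 3, 0.0506 without OGTBKO 4 and 0.0502 without WT 2, and trend removal to 0.0902 (log2 0.48). Ndufa3 (ENSMUSG00000035674, chr7:3617373-3620327, plus strand), a small single-span membrane subunit, measured 66.7, 51.5, 54.0 and 53.6 FPKM in OGTBKO libraries, against 45.9, 27.2, 28.9 and 36.3 FPKM in WT libraries. Both libraries numbered 1, which hold muscle transcripts, were the highest of their group. Its log2 change was 0.72 ± 0.17 (adjusted p = 0.0260), 0.78 without those libraries (adjusted p = 0.0173), and 0.48 with the trend removed (adjusted p = 0.0633). The call ended without OGTBKO 1, OGTBKO 3, OGTBKO 4 or WT 2 (adjusted p = 0.0530 to 0.0713), and Tfpt on the opposite strand overlaps the gene, with a mean of 3.17 FPKM and a log2 change of 0.55.

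Ndufa13 (ENSMUSG00000036199, chr8:69894180-69902558, minus strand), also known as GRIM-19, spans the membrane near the quinone channel. It measured 63.0, 53.3, 52.7 and 58.8 FPKM in OGTBKO libraries, against 67.9, 75.5, 64.6 and 77.0 FPKM in WT libraries. OGTBKO 1 came within a few FPKM of WT 3, and the groups did not overlap. The means were 56.9 ± 4.88 FPKM in OGTBKO and 71.2 ± 5.95 FPKM in WT tissue (log2 -0.32 ± 0.11, adjusted p = 0.0689). With the trend removed Ndufa13 was lower by limma (log2 -0.66 ± 0.10, adjusted p = 0.00999), and that call held without each library in turn (adjusted p = 0.00960 to 0.0355). Array weights, which give less reliable libraries less influence, also called it lower with the trend left in (log2 -0.40, adjusted p = 0.0144), as they did Ndufv1 (log2 -0.51, adjusted p = 0.0208) and Ndufs6 (log2 -0.38, adjusted p = 0.0458). That setting called 3516 of all genes, against 2050 without weights, and its lowest weights were those of WT 3 (0.414) and WT 1 (0.550). Ndufa1, a single-span subunit with the highest deposited FPKM of this region, measured 147, 139, 122 and 147 FPKM in OGTBKO and 207, 183, 88.4 and 192 FPKM in WT libraries. WT 3 lay below every OGTBKO library while the other WT libraries lay above them, and the log2 change was -0.20 ± 0.25 (adjusted p = 0.616), or -0.49 without WT 3 (adjusted p = 0.0253). The remaining 5 of the region had log2 changes of -0.31 (Ndufc1) to 0.31 (Ndufs5).

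The distal membrane arm is built of B-type subunits around the far proton channels. Here 1 of 10 measured genes was higher and 0 were lower by limma, also 0 by voom and at an unadjusted p under 0.05. Ndufb4 (ENSMUSG00000022820, chr16:37647170-37654453, minus strand), a further contact to complex III, measured 65.8, 71.8, 74.3 and 86.9 FPKM in OGTBKO libraries, against 63.5, 52.2, 43.7 and 53.4 FPKM in WT libraries. OGTBKO 1 and WT 1 were nearly alike and the other libraries stood apart by group. The means were 74.7 ± 8.88 FPKM in OGTBKO and 53.2 ± 8.09 FPKM in WT tissue (log2 0.49 ± 0.14, adjusted p = 0.0414). It lost the call without OGTBKO 2, 3 or 4 or WT 2, 3 or 4 (adjusted p = 0.0641 to 0.102) and with the trend removed (log2 0.34, adjusted p = 0.0935), and kept it without both libraries numbered 1 (log2 0.64, adjusted p = 0.0264). Ndufb11, X-linked and with the highest deposited FPKM of the region, measured 172, 212, 175 and 225 FPKM in OGTBKO and 262, 210, 197 and 185 FPKM in WT libraries (log2 -0.12, 95% interval -0.45 to 0.21). Of the others, 4 had positive changes that did not pass, at log2 0.43 (Ndufb6), 0.42 (Ndufb7), 0.37 (Ndufb8) and 0.32 (Ndufb10), and the remaining ones lay between -0.22 and -0.01.

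Ndufab1 (ENSMUSG00000030869, chr7:122085403-122101886, minus strand) encodes the mitochondrial acyl carrier protein, which carries growing fatty acid and lipoic acid precursors and is also built into complex I. It measured 23.4, 26.3, 26.7 and 26.2 FPKM in OGTBKO libraries, against 32.4, 33.2, 29.1 and 36.0 FPKM in WT libraries. All OGTBKO libraries were lower, by little against WT 3. The means were 25.7 ± 1.5 FPKM in OGTBKO and 32.7 ± 2.84 FPKM in WT tissue (log2 -0.34 ± 0.10, adjusted p = 0.0465). Leaving out any library but WT 3 ended the call (adjusted p = 0.0653 to 0.115), as did trend removal (log2 -0.18, adjusted p = 0.251).

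Of the 8 assembly factors with the stem, 1 was higher, 1 was lower and 6 did not pass; with the trend removed limma called 0, with 0 above and 2 below at an unadjusted p under 0.05. Ndufaf4 (ENSMUSG00000028261, chr4:24898083-24905001, plus strand), which helps build the Q module together with Ndufaf3, measured 16.4, 20.2, 18.6 and 18.9 FPKM in OGTBKO libraries, against 22.3, 32.3, 24.4 and 27.6 FPKM in WT libraries. Every OGTBKO library was below every WT library, and WT 2 was the highest by some distance. The means were 18.5 ± 1.57 FPKM in OGTBKO and 26.6 ± 4.34 FPKM in WT tissue (log2 -0.50 ± 0.13, adjusted p = 0.0325). The call ended without any 1 of the OGTBKO libraries, WT 2 or WT 4 (adjusted p = 0.0538 to 0.0829) and with the trend removed (log2 -0.28, adjusted p = 0.157). Its partner Ndufaf3 had 8.20 ± 1.79 FPKM in OGTBKO and 10.0 ± 1.58 FPKM in WT tissue (log2 -0.29, adjusted p = 0.268), and Impdh2 overlaps it on the opposite strand. Ndufaf6 (ENSMUSG00000050323, chr4:11051045-11076205, minus strand), needed for early assembly of the membrane arm around mt-Nd1, measured 8.98, 10.3, 13.0 and 11.6 FPKM in OGTBKO libraries, against 8.76, 7.07, 8.34 and 7.23 FPKM in WT libraries. OGTBKO 1 was close to WT 1, and the other OGTBKO libraries were clearly higher (log2 0.45 ± 0.13, adjusted p = 0.0470). It lost the call without OGTBKO 2, 3 or 4 or WT 2, 3 or 4 (adjusted p = 0.0552 to 0.125) and with the trend removed (log2 0.21, adjusted p = 0.316). Ndufaf1, a partner of Ecsit and Acad9 in membrane arm assembly and the most abundant of the factors, measured 26.3, 31.0, 33.1 and 37.7 FPKM in OGTBKO and 23.5, 22.6, 29.6 and 29.3 FPKM in WT libraries (log2 0.28 ± 0.14, adjusted p = 0.201). The other 4 (Ndufaf2, Ndufaf5, Ndufaf7 and Ndufaf8), which act at other steps of assembly, had log2 changes of 0.01 to 0.22.

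Ndufa4 carries a complex I name but is now counted as a subunit of complex IV. It measured 224, 225, 207 and 268 FPKM in OGTBKO and 329, 211, 225 and 217 FPKM in WT libraries, with WT 1 alone above the rest (log2 -0.07, 95% interval -0.44 to 0.30). Its paralogue Ndufa4l2, known as a hypoxia-inducible gene and outside the rule by name, was higher, with 6.90, 6.29, 7.57 and 5.71 FPKM in OGTBKO against 2.31, 3.76, 4.49 and 3.91 FPKM in WT libraries (log2 0.81 ± 0.18, adjusted p = 0.0192; 0.149 with the trend removed). A larger change on this scale belonged to Ndufb4c, a processed pseudogene of Ndufb4, with 9.84, 7.32, 7.84 and 9.39 FPKM in OGTBKO libraries, against 3.14, 3.04, 3.39 and 2.51 FPKM in WT libraries. Its log2 change of 1.37 ± 0.13 (adjusted p = 0.00155) was 1.21 with the trend removed (adjusted p = 0.00425). A processed pseudogene can share reads with its parent, so the values of both Ndufb4 and Ndufb4c are uncertain, and whether the pseudogene itself is transcribed was not tested. Ndufab1-ps, the pseudogene of Ndufab1, stood at 38.4 ± 3.01 FPKM in OGTBKO and 41.8 ± 6.74 FPKM in WT tissue (log2 -0.11, adjusted p = 0.585). Ndufab1 itself had 25.7 FPKM in OGTBKO and 32.7 FPKM in WT tissue. That order depends on the length used, 468 bases for Ndufab1-ps and 6883 bases for Ndufab1. With the length of its principal transcript Ndufab1 had 57.7 FPKM over all 8 libraries, above the 40.1 FPKM of Ndufab1-ps. Ndufb1-ps, the mouse locus of the small subunit Ndufb1, listed in the table as a noncoding RNA, measured 40.2, 47.2, 38.9 and 49.1 FPKM in OGTBKO and 71.5, 76.3, 43.3 and 65.7 FPKM in WT libraries. Only WT 3 lay within the OGTBKO range (log2 -0.52 ± 0.18, adjusted p = 0.0797), and with the trend removed it was lower (log2 -0.76, adjusted p = 0.0241).

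**Figure D3:**
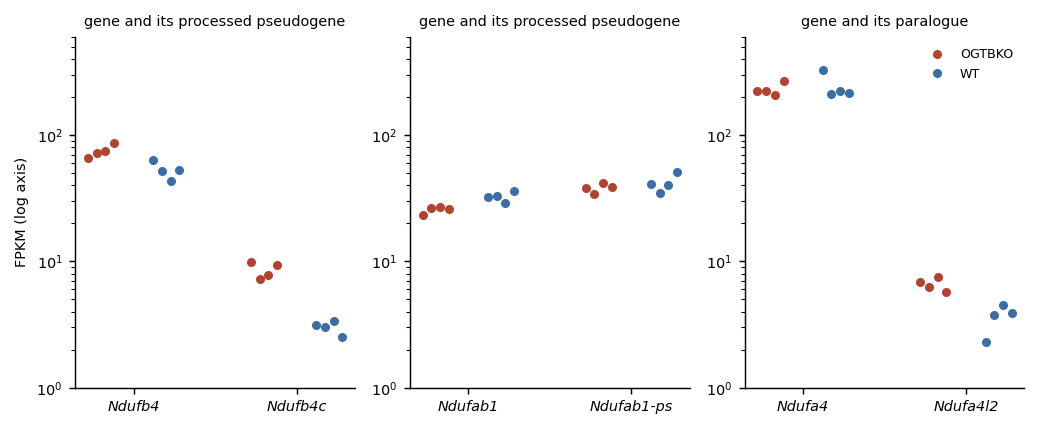
FPKM (log axis) per library of Ndufb4, Ndufab1 and Ndufa4 beside the related model that the rule leaves out, OGTBKO left of WT. Ndufb4c lay at 7.32 to 9.84 FPKM in OGTBKO and 2.51 to 3.39 FPKM in WT libraries, Ndufab1-ps overlapped between the groups, and Ndufa4l2 did not.

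Complex I genes were short, and shortness went with the direction of change over all genes. The median gene length in the table was 1701 bases for the 45 genes and 3844 bases for all genes tested, with 39 of the 45 below that of all genes, and the median transcript GC content was 51.4% against 49.8%. With all genes tested divided into 4 equal bins, the shortest bin held 28 of the 45, and in it 12.8% of all genes were higher and 4.01% lower, while in the longest bin, which held 2, 2.88% were higher and 12.9% lower. In 4 equal bins by GC content the complex I genes numbered 8, 12, 17 and 8 from lowest to highest. All genes were higher in 2.55%, 5.84%, 9.73% and 14.3% and lower in 17.5%, 6.93%, 3.47% and 1.88% of cases in these bins. Both lower complex I calls (Ndufab1 and Ndufaf4) fell in the lowest GC bin and in the 2 longer length bins, and the 6 higher calls all lay in the 2 shorter length bins and outside the lowest GC bin. Among the 45 genes the log2 change had a Pearson r of 0.20 and a Spearman rho of 0.15 with GC content, and -0.15 and -0.13 with log2 length, weaker on GC than over all genes (0.33 and 0.37 on GC, -0.12 and -0.22 on length). With the trend removed the signs turned among the 45 genes, to -0.21 and -0.18 on GC and 0.15 and 0.15 on length. Over all genes, on which the trend was fitted, they were then near 0. These genes share libraries, and the correlations are descriptions. Relative to the mean of the 8 libraries, the slope on GC content was above 0 in all 4 OGTBKO libraries (0.00477 to 0.0222 log2 per percentage point) and below 0 in all 4 WT libraries (-0.0149 to -0.00779), so composition and genotype cannot be told apart by library. In the highest GC bin, the median log2 change of the 8 complex I genes there was -0.08, where that of all genes was 0.17, and the trend-removed median was -0.37. That bin holds Ndufa13, Ndufv1, Ndufs7, Ndufs8, Ndufa11, Ndufb9, Ndufaf3 and Ndufaf8.

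**Figure D4:**
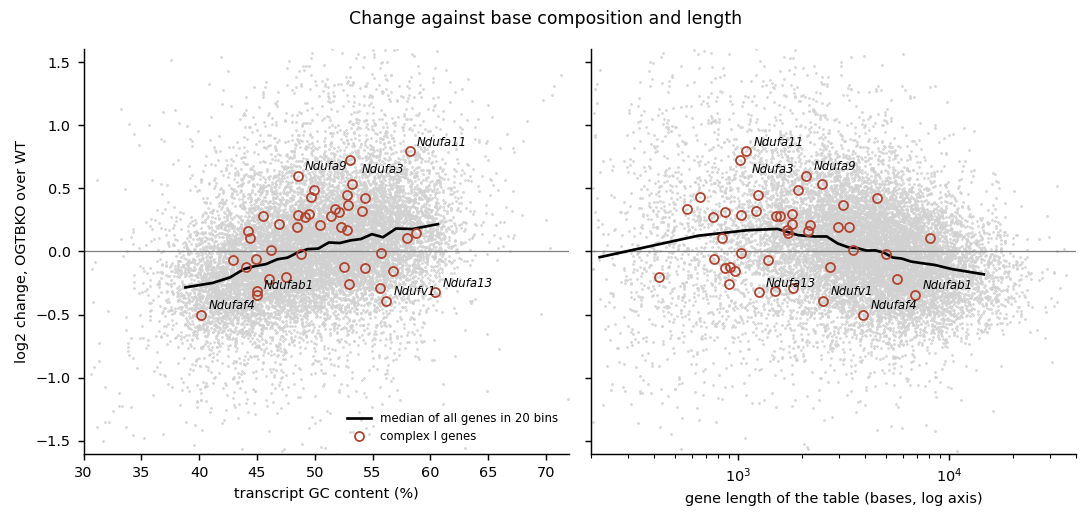
Log2 change (OGTBKO over WT) of every gene tested (grey; values beyond 1.6 in either direction are not drawn) and of 44 complex I genes (rings) against transcript GC content (left) and gene length on a log axis (right), with the median of all genes in 20 bins as a line. Ndufa11, Ndufa3 and Ndufa9 lie above the line, and Ndufa13 and Ndufv1 below it at high GC content. Ndufaf4 and Ndufab1 lie at the low-GC end, where the line itself is below 0. By length Ndufab1 (6883 bases) lies toward the long end and Ndufaf4 (3902 bases) near the middle.

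The libraries of a group did not behave alike. OGTBKO 4 was the highest of its group for 25 of the 45 genes and lay above the 8-library mean for 37, and its median deviation for complex I genes was 0.17 on the log2 scale. In WT tissue WT 1 was the highest for 23 genes and WT 3 the lowest for 17, and only 7 genes of WT 3 lay above the mean. WT 3 also had the highest mitochondrial read share (39.4%) and the steepest slope on length (0.0624 log2 per doubling), and their part in its low values was not tested. Summed over the 45 genes the level was 3726 to 4294 FPKM in OGTBKO and 3299 to 4033 FPKM in WT libraries, and these ranges overlapped. Ndufa12, the N module subunit that replaces the assembly factor Ndufaf2, showed the libraries numbered 1 plainly, with 48.7, 27.7, 26.9 and 32.0 FPKM in OGTBKO and 50.1, 19.5, 27.6 and 19.6 FPKM in WT libraries. OGTBKO 1 and WT 1, the libraries with the most muscle transcripts, were alike and far above the rest of their groups. Without both of them 6 complex I genes were higher and 1 (Ndufaf4) was lower, the median log2 change was 0.24, and with the trend removed as well 3 were higher (Ndufa3, Ndufa9 and Ndufb4) and 3 lower. Over all genes tested, 1920 of 13171 were called without both libraries, and 1473 of 13161 with the trend removed as well. WT 4, in which muscle markers summed to 35.8 FPKM, stayed in these fits.

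**Figure D5:**
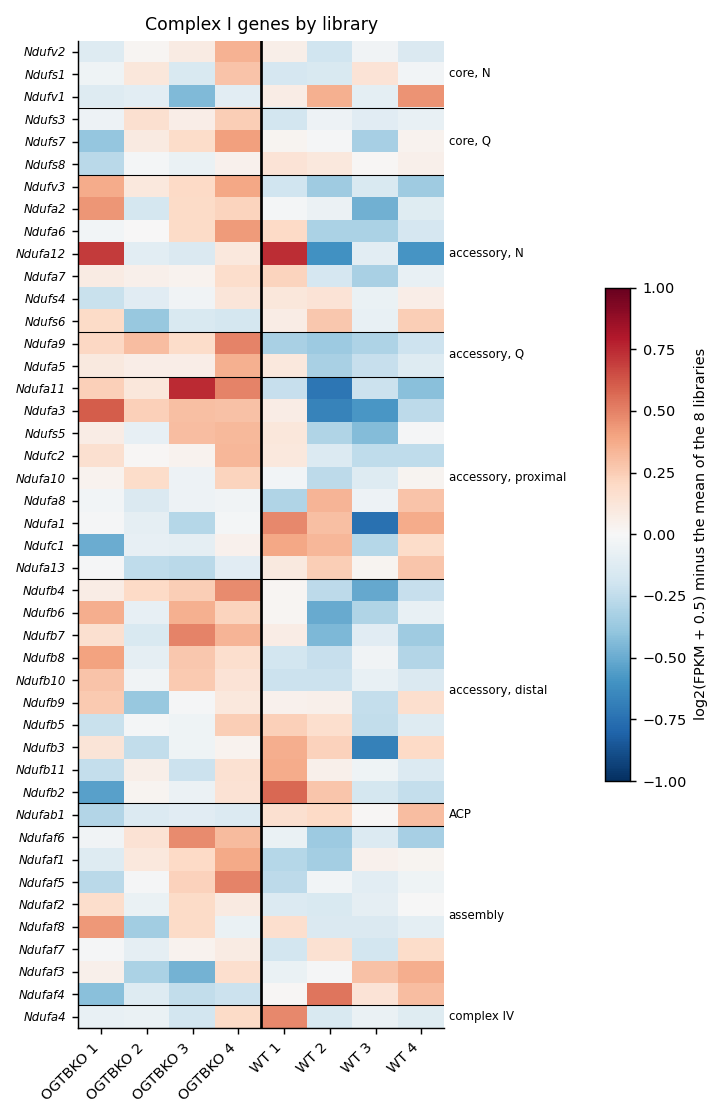
The log2(FPKM + 0.5) of 44 complex I genes minus each gene's mean over the 8 libraries (colour), by library (OGTBKO left, WT right) and role. Over all 45 genes OGTBKO 4 is above the mean for 37 and WT 3 for 7, and Ndufa12 is highest in OGTBKO 1 and WT 1.

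The table divides by the combined length of all exons, which exceeded the length of the principal transcript more than 2-fold for 11 of the 45 genes, so levels between genes are also given per principal transcript. On that scale the 8 assembly factors had 9.79 (Ndufaf8) to 30.1 FPKM (Ndufaf1), while every subunit but Ndufb2, with 6.57 FPKM, was at 44.6 FPKM (Ndufa12) or above. Among principal transcripts of equal rank the longest was taken. The one taken for Ndufb2 has 4371 bases, and its level with a shorter transcript was not computed, so its place below the other subunits is uncertain. By ratio Ndufb7 moved the most, to 127 FPKM per principal transcript from 17.5 FPKM as deposited. The overlap of gene models bears on the counts as well, since 20 of the 45 genes overlap another gene in the table, among them Ndufs1 with Eef1b2 (mean 37.4 FPKM) and Ndufaf2 with Smim15 (14.8 FPKM) on the opposite strand.

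Among other genes of the pathway, 1 of 11 assembly factors without the Nduf stem was higher and 1 was lower. Acad9, an acyl-CoA dehydrogenase relative that works with Ndufaf1 and Ecsit, was higher, with 9.74, 9.43, 9.32 and 10.7 FPKM in OGTBKO and 5.78, 6.96, 6.49 and 7.06 FPKM in WT libraries (log2 0.54, adjusted p = 0.0103; 0.61 with the trend removed). Tmem126b, a membrane protein of the same assembly complex, was lower, with 6.6, 6.89, 6.24 and 7.71 FPKM in OGTBKO and 8.80, 9.28, 8.27 and 8.68 FPKM in WT libraries (log2 -0.33, adjusted p = 0.0427; 0.289 with the trend removed). For both the groups did not overlap. The 7 mitochondrially encoded subunits, which form the proton-pumping membrane core, all had negative changes, and 0 passed limma's test. At an unadjusted p under 0.05, a cut not counted over all genes, 2 were lower, and voom called 1 of them. Their median was -0.54, or -0.43 with library totals as the denominator, where 1 of the 7 was above 0, and -0.35 with the trend removed, where 1 was also above 0. The smallest p was that of mt-Nd6, with 18728, 22195, 15374 and 22642 FPKM in OGTBKO and 26959, 32278, 41686 and 26442 FPKM in WT libraries (log2 -0.68, adjusted p = 0.0753). WT 3, with the highest mitochondrial read share, was the highest library for each of these subunits but mt-Nd3. For mt-Nd1 (log2 -0.09) it stood at 49676 FPKM, the other WT libraries at 24475 to 35129 FPKM and OGTBKO libraries at 30201 to 34819 FPKM.

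The other complexes and the iron-sulfur supply showed higher calls in some genes and no lower ones on the deposited values, where 8.11% of all genes were higher and 7.46% lower. Complex III had 1 of 9 higher, Uqcrb (log2 0.50, adjusted p = 0.0385), a small subunit near its quinone site. Complex IV had 3 of 14, namely Cox7a1 (log2 1.14, adjusted p = 0.00317), the isoform of heart, muscle and brown fat, and Cox5b (log2 0.80) and Cox6b1 (log2 0.64). Complex V had 5 of 16: the inhibitor Atpif1 (log2 1.33), Atp5k (log2 1.6), Atp5o (log2 0.78), and Atp5g3 and Atp5g2, isoforms of the ring subunit (log2 0.45 and 0.47). Atp5k stood at 113 FPKM in WT 1 and 38.3 to 48.8 FPKM in the other WT libraries. Iron-sulfur cluster assembly, which supplies the clusters of complex I, had 3 of 13 higher, the scaffold Iscu (log2 0.94, adjusted p = 0.00383), the late carrier Nfu1 (log2 0.81) and the reductase Fdxr (log2 0.70). For complex II and the other entry points to ubiquinone limma called 0 of 9, voom 0, and at an unadjusted p under 0.05 1 was higher and 3 lower; the smallest p was that of Sdhc (log2 -0.30, adjusted p = 0.0703). Unadjusted, 1 gene of complex III, 3 of complex IV, 1 of complex V and 3 of the iron-sulfur list were lower, and voom called 1 of these, in complex III. The share of all genes at an unadjusted p under 0.05 was not counted, so the unadjusted counts have no background beside them. With the trend removed the counts were 1 higher and 1 lower in complex III, 2 and 3 in complex IV, 2 and 1 in complex V, 2 and 1 in iron-sulfur assembly, and 0 and 2 in complex II and the other entry points, where 5.4% of all genes were higher and 4.94% lower.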

How the data were processed

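RNA of 8 brown fat samples, 4 OGTBKO and 4 WT by genotype label, was sequenced. The authors deposited 1 table of FPKM values for 54532 genes, made with HISAT2 2.0.5 and Subread's featureCounts 1.5.0-p3 on mm10 per the submitters' processing notes, which do not mention strand. Multiplied by gene length, the deposited FPKM gave whole reads in 100% of cases (tolerance 0.001), and its denominators were 0.790 (WT 3) to 1.13 (OGTBKO 3) times the library's reads in genes (13393962 to 15897920), so values are already scaled between libraries and a change is relative to the typical gene. No value columns were left out.

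Values were analysed as log2(FPKM + 0.5), which understates changes of low genes, for the 13171 genes whose mean reached 0.5 FPKM; coordinates are those of the table on mm10. The test of OGTBKO against WT was the moderated, two-sided one of limma 3.58.1 (R 4.3.3) with a mean-variance trend, adjusted by Benjamini-Hochberg over all genes; every adjusted p of a gene comes from limma. Errors are SDs of 4 libraries beside means and SEs of the fit beside log2 changes. Transcript GC content, from GENCODE M21 (99.9% of gene identifiers found), was known for 13161 genes; for trend removal, splines on GC content and log2 length were taken out of each library's deviation from the mean of the 8 libraries. Pathway lists, roles and motifs were written by hand; the complex I genes and these lists were chosen with earlier results of these data known, so no list is tested. Shares of all genes at an unadjusted p under 0.05 were not counted, so counts at that cut have no background. Values in every library are given for genes called with or without the trend, the core subunits and the gene with the highest deposited FPKM of each role. Ndufa12 lies outside that rule and was picked to show the libraries numbered 1. Values of 1 core subunit are not reported here, though it stays in all counts, medians and sums. Settings that leave out both libraries numbered 1, or a library with the trend removed, were added after the data were seen; the others were planned. On simulated data for OGTBKO against WT over 13171 genes, the limma step recovered 18.8% of genes changed 1.5-fold, 55.1% of those changed 2-fold and 88.1% of those changed 4-fold, with 7 false calls. The changed genes numbered 64, 69 and 67 at these folds, far fewer than the 2050 called in the data. Read noise was also drawn on top of the observed spread. The shares therefore do not carry over to the genes called here.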

Additional observations from a re-analysis of the deposited data

Results flagged for a closer look

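In 6 of 90 groups of 4 libraries, 1 library of a complex I gene stood far from the other 3 of its group, where chance alone flags about 1 in 20 groups. Ndufa5, of the Q module, was at 111.92 FPKM in OGTBKO 4 and at 91.1 to 93.1 FPKM in the other OGTBKO libraries. Ndufa3, of the membrane arm, was at 66.683 FPKM in OGTBKO 1, which holds muscle transcripts, and at 51.5 to 54.0 FPKM in the others of that group. Ndufv1, the NADH-binding subunit, was at 114.93 FPKM in OGTBKO 3, below the 143 to 145 FPKM of the other OGTBKO libraries. In WT tissue Ndufa4 was at 329.27 FPKM in WT 1 and at 211 to 225 FPKM elsewhere, and Ndufaf8 was at 10.206 FPKM in WT 1 and at 8.12 to 8.43 FPKM elsewhere. Ndufs7, beside the quinone site, was at 104.35 FPKM in WT 3, below the 131 to 135 FPKM of WT 1, WT 2 and WT 4. WT 1 also holds muscle transcripts and WT 3 has the highest mitochondrial read share, and the part of either in these values was not tested.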

How the results depend on the processing

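The 6 higher and 2 lower complex I genes are counts of small differences, most of them under 1.5-fold, and they moved with many choices. Of the 21 alternatives planned, Ndufa9 kept its call in 20, Ndufv3 in 17, Ndufa11 in 15 and Ndufa3 in 14. Ndufaf4 kept its call in 9, Ndufb4 in 7, Ndufaf6 in 6 and Ndufab1 in 5. The simulated data recovered 18.8% of genes changed 1.5-fold. Far fewer genes were changed there than were called here, so that share does not carry over to these genes. The higher count was 3 without a filter on low values, 3 with the GC trend alone removed, 1 with the GC and length trend removed, 3 without both libraries numbered 1 once the trend was removed, and 9 with array weights. It ran from 1 (without WT 2) to 6 when single libraries were left out, with 2 without OGTBKO 3 and 2 without OGTBKO 4, and from 0 to 2 when that was combined with trend removal. The lower count was 0 without the filter, 0 with the library total as denominator, with or without mitochondrial genes in it, 4 with the trend removed, 1 by limma voom on the back-calculated reads, 5 with array weights and 1 without both libraries numbered 1. Leaving out single libraries gave 0 (without any OGTBKO library, WT 2 or WT 4), 1 without WT 1 and 4 without WT 3, and 1 to 5 with the trend removed. The median log2 change stayed above 0 in every setting run. It was 0.277 with the library total as denominator, 0.0652 with the trend removed, 0.0217 with the length trend alone removed, 0.0933 to 0.179 without single libraries and 0.0260 to 0.0576 when that was combined with trend removal. Of all genes, 2050 were called, 1229 without the filter, 1229 with the library total, 1361 with the trend removed, 1314 with the GC trend removed, 3516 with array weights, and 692 (without OGTBKO 3) to 2122 (without WT 3) when single libraries were left out. Leaving out OGTBKO 2 gave 1175, OGTBKO 4 gave 945, WT 2 gave 784 and WT 4 gave 1195. Without both libraries numbered 1 the count was 1920, or 1473 with the trend removed as well. The causes were not tested.

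Whether the sample numbers pair the groups could not be settled. Deviations of same-numbered libraries from their group means had correlations of 0.220, 0.169, 0.0143 and -0.00696. Of the 4 OGTBKO libraries, 2 correlated best with the WT library of their own number. With a replicate block 3 complex I genes were higher and 1 was lower, of 888 genes called; with the block and trend removal 0 were higher and 2 lower, the median was 0.0652 and 475 genes were called.

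Among values of the 21 complex I genes described by library under the rule, which leaves out Ndufa12, 441 comparisons were planned. Of these, 343 kept direction and side of the threshold, 75 lost the call, 15 gained it and 8 changed sign. Those 8 sign changes were all in genes not called. Ndufa4 turned to 0.0448 with the library total, 0.0908 with the GC trend removed, 0.0105 with array weights and 0.0783 without WT 1. Ndufs7 turned to -0.152 with the trend removed, with or without the block. It was at -0.0687 with the GC trend alone removed and -0.0196 with the length trend alone removed. Without single libraries Ndufa4 ran from -0.145 to 0.0783 and Ndufs7 from 0.0326 to 0.299. In settings added after the data were seen, 11 more comparisons changed sign. Without both libraries numbered 1, Ndufa4 was at 0.0912, or 0.0251 with the trend removed as well, and Ndufb11 at 0.0409. Leaving out single libraries with the trend removed took Ndufs7 to between -0.281 and 0.0296.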
